A study of Homo sapiens with 30 samples.

Results

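The genes of the unfolded protein response and of the amino acid response were followed in 5 human breast cancer cell lines treated with BMP7. A list of 38 gene symbols was used, and the array probes that carry one of them as gene name were taken. This found 37 of the 38 symbols among the 30484 gene names of the array. The remaining symbol, MANF, stands on the array under its older name ARMET and was kept outside all counts except those of promoters. Of the 37 genes, 18 form a group of endoplasmic reticulum (ER) chaperones and folding, degradation and sensor genes, called the ER list here, and 19 form a group of targets of the transcription factor ATF4, called the ATF4-type list, which also holds ATF4 itself. The rule itself used no measured value.

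Proteins that fold badly in the ER activate sensors in its membrane, among them ATF6, IRE1, which splices the mRNA of XBP1, and PERK, which phosphorylates the translation factor eIF2α. ATF6 and XBP1 raise chaperones such as HSPA5 (also known as BiP), the disulfide isomerases of the PDI family and the machinery that sends bad proteins to degradation. Phosphorylated eIF2α lowers protein synthesis in general but raises the translation of ATF4, and the kinase GCN2 does the same when amino acids run short, so ATF4 targets such as ASNS, TRIB3, CHAC1 and the serine synthesis enzymes answer to both kinds of stress. In breast tissue, XBP1 is known for its high level in luminal breast cancer.

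The lines HCC1954, MDA-MB-231, MDA-MB-361, T-47D and ZR-75-30 received recombinant human BMP7 or vehicle for 30 min, 1, 3, 6, 12 or 24 h. According to the study's methods, the serum concentration for MDA-MB-231 and T-47D was an exception to the recommended conditions and differed between them. On each of 30 two-colour Agilent arrays, RNA of BMP7-treated cells (Cy5) was hybridized together with RNA of vehicle-treated cells (Cy3) of the same line and time point. Each sample was a pool of 3 cultures, and neither a repeat nor a dye swap was hybridized. Thus, the p-values below measure the spread between lines or between time points of pooled samples, and any fixed preference of a probe for either dye enters its ratio.

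On an array, both channels of 53.8% to 68.3% of the probes were well above background. In the vehicle channel, CDH1 was low in MDA-MB-231 alone among the 5 lines and VIM was highest there. ERBB2 was highest in MDA-MB-361, HCC1954 and ZR-75-30, and ESR1 was highest in MDA-MB-361 and T-47D. Among genes of other cell types, PTPRC did not exceed a log2 level of -5.95 in any line and COL3A1 did not exceed -4.14. Others were higher: PECAM1 reached -0.31 in HCC1954, COL1A1 -0.75 in MDA-MB-361, and CD3E -1.81 in HCC1954 and -1.80 in T-47D. The direct BMP targets ID2, ID3, SMAD6 and ID1 rose from the first hour to 3 to 24 h, by 0.95, 0.77, 0.53 and 0.85 on the log2 scale (adjusted p = 0.00107, 0.0132, 0.0159 and 0.0308, limma), whereas SMAD7 had 0.03 (adjusted p = 0.926). Of the 4 genes that rose, 0 passed without ZR-75-30, 1 without T-47D and 1 without the second scan batch. The array of MDA-MB-231 at 6 h had 2741 spots marked as outliers by the scanner software against 106 to 525 on the others, and SESN2, PSAT1 and SLC7A5 had no value there. The array of ZR-75-30 at 6 h had the widest spread, with 9.86% of all probes changed at least 2-fold. Its ratios correlated with those of T-47D at 1 h at r = -0.41 over all probes, the single pair of 435 below -0.3. The methods state the dyes, and the direction was kept.

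To show how the lists differ in their regulatory sequence, the promoters of the members in RefSeq (GRCh38.p14, 250 bases before to 50 bases after the start) were searched on both strands for 3 motifs. The ER stress response element (ERSE), bound by ATF6 and XBP1, is CCAAT and CCACG with 9 bases between them. ERSE-II is ATTGG and CCACG with 1 base between them, and the CARE, read by ATF4 with its C/EBP partners, was searched as TGATGNAA. Promoters were found for 18 of the 19 symbols of the ER list, with MANF counted among these symbols, and for 18 of the 19 of the ATF4-type list. ERSE stood in 7 genes of the ER list (CALR, CANX, CRELD2, HSP90B1, HSPA5, PDIA6 and XBP1) and in none of the ATF4-type list. Of all 27305 genes with a promoter, 0.0916% held it. ERSE-II stood in HERPUD1, HYOU1 and SDF2L1 and in no ATF4-type gene, and in 0.0696% of all genes. CARE stood in HERPUD1 and in 5 ATF4-type genes, namely AARS1, ASNS, CHAC1, GARS1 and SLC3A2 (AARS1 and GARS1 are AARS and GARS on the array). It stood in 4.46% of all genes. The promoters of 5 members followed closely below are shown, with the matched motif and the bases inside it in capitals. In HSPA5 (chr9:125241294-125241593, minus strand) the ERSE ran from base -66 to -48 relative to the start, and in XBP1 (chr22:28800520-28800819, minus strand) from -52 to -34. HERPUD1 (chr16:56931892-56932191, plus strand) held a CARE on the opposite strand at -176 to -169 and an ERSE-II at -117 to -107. ASNS (chr7:97872359-97872658, minus strand) held a CARE at -68 to -61, and CHAC1 (chr15:40953221-40953520, plus strand) a CARE on the opposite strand at -209 to -202.
HSPA5: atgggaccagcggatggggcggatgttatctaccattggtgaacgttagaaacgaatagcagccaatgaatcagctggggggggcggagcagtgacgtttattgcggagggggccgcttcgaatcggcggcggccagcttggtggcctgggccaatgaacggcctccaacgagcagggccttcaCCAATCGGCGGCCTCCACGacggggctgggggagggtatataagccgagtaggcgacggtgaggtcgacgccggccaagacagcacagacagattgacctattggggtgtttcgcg
XBP1: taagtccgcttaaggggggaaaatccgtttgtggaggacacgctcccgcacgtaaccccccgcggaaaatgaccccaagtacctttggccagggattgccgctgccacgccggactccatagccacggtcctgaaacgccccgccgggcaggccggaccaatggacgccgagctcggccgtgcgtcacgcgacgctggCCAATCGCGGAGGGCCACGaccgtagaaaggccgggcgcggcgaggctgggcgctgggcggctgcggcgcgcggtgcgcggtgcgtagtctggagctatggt
HERPUD1: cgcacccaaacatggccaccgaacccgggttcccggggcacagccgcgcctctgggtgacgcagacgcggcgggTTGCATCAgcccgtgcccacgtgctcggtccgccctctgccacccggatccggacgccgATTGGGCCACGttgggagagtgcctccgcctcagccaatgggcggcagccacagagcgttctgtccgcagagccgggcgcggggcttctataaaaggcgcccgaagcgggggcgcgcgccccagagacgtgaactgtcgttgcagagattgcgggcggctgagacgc
ASNS: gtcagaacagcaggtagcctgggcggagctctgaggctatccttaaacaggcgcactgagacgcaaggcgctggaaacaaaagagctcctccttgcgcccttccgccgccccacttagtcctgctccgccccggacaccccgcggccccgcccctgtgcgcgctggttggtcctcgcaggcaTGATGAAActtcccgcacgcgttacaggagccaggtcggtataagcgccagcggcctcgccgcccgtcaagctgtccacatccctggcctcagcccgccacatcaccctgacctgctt
CHAC1: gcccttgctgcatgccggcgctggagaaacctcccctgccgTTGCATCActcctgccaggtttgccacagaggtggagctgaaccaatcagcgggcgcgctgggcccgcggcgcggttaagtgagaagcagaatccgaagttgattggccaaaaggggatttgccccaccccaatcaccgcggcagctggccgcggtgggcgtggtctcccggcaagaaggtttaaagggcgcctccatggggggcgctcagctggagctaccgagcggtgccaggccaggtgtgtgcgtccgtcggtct

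The first question was whether BMP7 moved the stress genes in the same way in all lines. For each gene, the log2 ratio of BMP7 over vehicle was averaged over the 6 time points of a line, and the mean of the 5 lines was tested against 0 with limma, with adjustment over all 41000 probes. None of the 37 genes passed at an adjusted p of 0.05, as against 0.00976% of all probes. Without adjustment, 11 of the 37 genes (29.7%) had p under 0.05, beside 15.4% of all probes. In the ER list 8 genes lay above 0 and 10 below, with a median ratio of -0.005 (range -0.24 to 0.17), and in the ATF4-type list 9 above and 10 below, with a median of -0.016 (range -0.18 to 0.18), beside a median of -0.0004 over all probes. The 95% intervals of all 37 genes lay inside a log2 ratio of 0.5 either way, that is a 1.41-fold change, and their outermost bounds were -0.41 for XBP1 and 0.27 for SLC7A5.

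HSPA5, the major ER chaperone, had a mean ratio of 0.06 (SE 0.032, 95% interval -0.02 to 0.14, adjusted p = 0.442). Its values lay between -0.54 at 6 h in ZR-75-30 and 0.40 at 12 h in MDA-MB-231, and in every line they fell on both sides of 0. CANX (calnexin) had 0.17 (SE 0.021, adjusted p = 0.0868), with a positive mean in 5 of 5 lines, and its 6 values were all above 0 in HCC1954 (0.05 to 0.25, median 0.16) and in ZR-75-30 (0.02 to 0.47, median 0.14). The second probe of CANX was at -0.03 (adjusted p = 0.888). CALR (calreticulin) had -0.19 (SE 0.035, adjusted p = 0.128), with a negative mean in 5 of 5 lines, and its 6 values were all below 0 in MDA-MB-231 (-0.39 to -0.15) and in MDA-MB-361 (-0.30 to -0.16). DNAJB9, an HSPA5 cochaperone, had 0.13 (SE 0.027, adjusted p = 0.143).

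The largest mean ratio of the ER list in size was that of XBP1, at -0.24 (SE 0.066, 95% interval -0.41 to -0.07, adjusted p = 0.202), and its second probe was at -0.02 (adjusted p = 0.960). XBP1 was below 0 on all 6 arrays of MDA-MB-231 (-0.62 to -0.25, median -0.31) and lay between -0.70 and 0.00 in ZR-75-30 (median -0.38) and between -0.36 and 0.09 in T-47D (median 0.07). Lines thus differed in median, but the values of T-47D overlapped those of each other line. HERPUD1, a membrane protein of ER-associated degradation, had -0.19 (SE 0.060, adjusted p = 0.239). Its 6 values were all below 0 in HCC1954 (-0.28 to -0.11) and in MDA-MB-361 (-0.46 to -0.13), and in ZR-75-30 they ran from -0.47 to 0.58.

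In the ATF4-type list, ATF4 itself had a mean ratio of -0.13 (SE 0.053, adjusted p = 0.354) and TRIB3, a pseudokinase that restrains ATF4, -0.18 (SE 0.057, adjusted p = 0.254). Both were below 0 on all 6 arrays of MDA-MB-361, TRIB3 between -0.48 and -0.20 and ATF4 between -0.41 and -0.16. DDIT3, which encodes the proapoptotic factor CHOP, had 0.10 (SE 0.036, adjusted p = 0.309), with 6 values of 0.09 to 0.39 in MDA-MB-361. That line alone had all DDIT3 values above 0. CHAC1, an enzyme that breaks down glutathione, had 0.08 (SE 0.022, adjusted p = 0.198), asparagine synthetase ASNS -0.02 (SE 0.032, adjusted p = 0.859) and the stress-induced leucine sensor SESN2 0.03 (SE 0.060, adjusted p = 0.868). The leucine transporter SLC7A5 had 0.18 (SE 0.037, adjusted p = 0.146) and the factor CEBPB -0.15 (SE 0.028, adjusted p = 0.131), each with 1 direction in 5 of 5 line means. Their second probes were at 0.12 for SLC7A5 (adjusted p = 0.313) and, with the sign turned, at 0.03 for CEBPB (adjusted p = 0.914). With another background correction and no dye normalization along intensity (normexp and median scaling), 11 members passed the test, all upward, among them SLC7A5 at 0.52, CANX at 0.48 and HSPA5 at 0.31. There, 3229 of the 3266 probes called in all were also upward. Of the 11, 6 had estimates below 0 otherwise, namely HSP90B1 (0.51 against -0.05), SEC61B (0.38 against -0.02), SDF2L1 (0.35 against -0.01), ATF4 (0.35 against -0.13), ASNS (0.28 against -0.02) and PDIA6 (0.31, from next to 0).

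**Figure D1:**
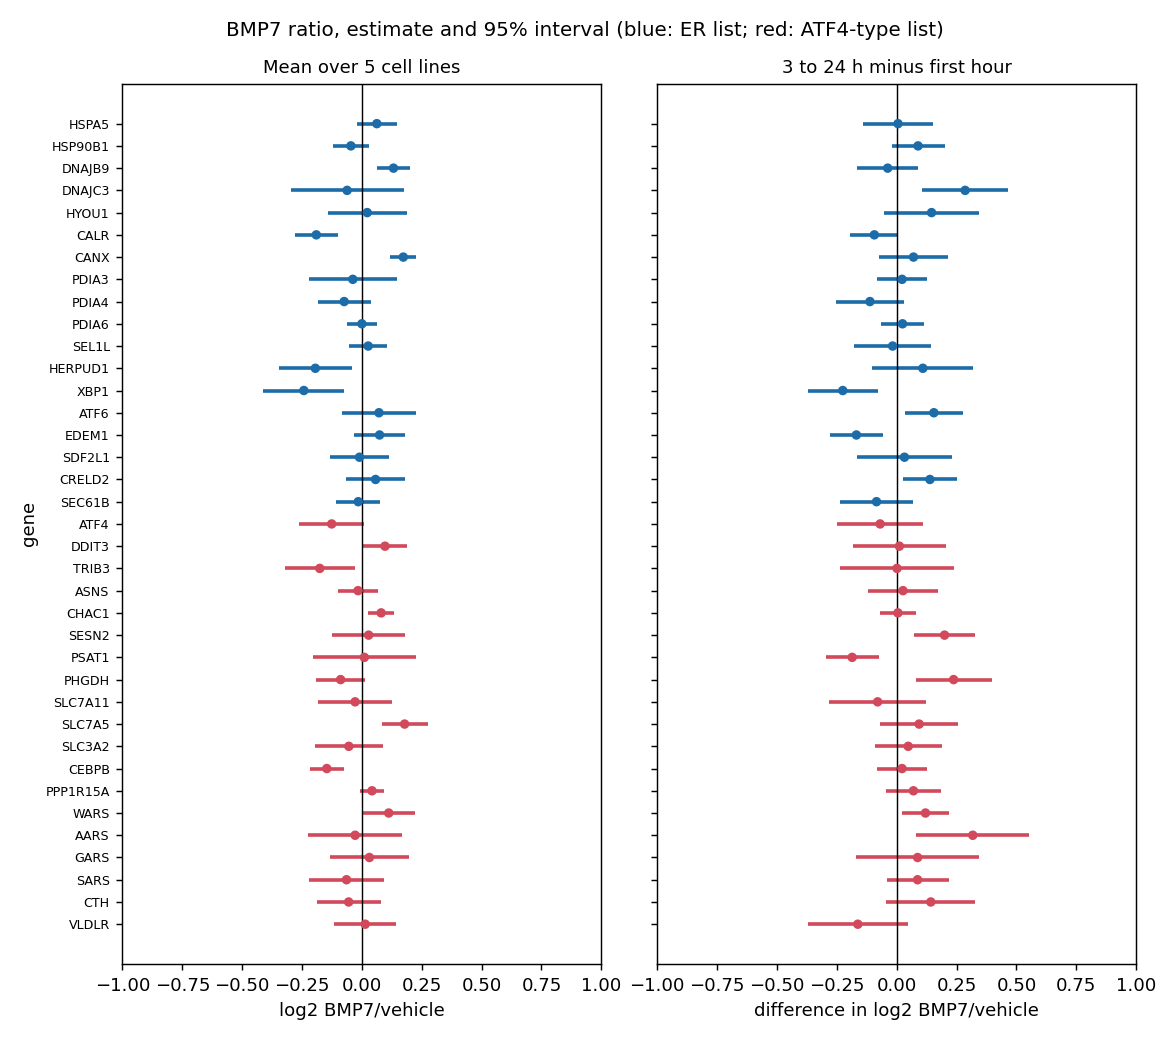
Estimate (point) and 95% interval (line) of each member in log2 BMP7 over vehicle, as the mean over 5 cell lines (left) and as the difference of 3 to 24 h minus the first hour (right), with the ER list in blue and the ATF4-type list in red. All intervals on the left lie inside 0.5 either way, and on the right only that of AARS passes 0.5 (to 0.55).

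The second question was whether the ratio moved after the first hour. The mean of 3, 6, 12 and 24 h minus the mean of 30 min and 1 h was tested within lines, where a constant dye effect drops out. None of the 37 genes passed, as against 2.44% of all probes, and 10 (27.0%) had an unadjusted p under 0.05, beside 18.5% of all probes. Where both channels had to be well above background, 2177 of 31119 probes passed. There, 7852 had an unadjusted p under 0.05, a share near that of the members in the fit over all probes. The ER list had 11 genes above 0 and 7 below (median 0.02), the ATF4-type list 15 above and 4 below (median 0.05), and the median over all probes was 0. Over all probes, the number passing was 1002, but it fell to 3 without ZR-75-30, 4 without T-47D and 3 without the second scan batch of 6 arrays. That batch holds HCC1954, MDA-MB-231 and ZR-75-30 at 30 min, T-47D at 3 h, and MDA-MB-231 and ZR-75-30 at 6 h. Batch and first hour thus overlap in part. With the batch as a further term, 78 probes passed.

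PSAT1, an enzyme of serine synthesis, had the smallest p. Its ratio averaged 0.48 in the first hour and 0.15 later in T-47D, 0.16 and -0.15 in ZR-75-30, and -0.17 and -0.35 in MDA-MB-361. It was lower later in 5 of 5 lines, by -0.19 on average (SE 0.053, adjusted p = 0.0571). PHGDH, the enzyme before it in the pathway, was higher later in 5 of 5 lines, by 0.24 (SE 0.077, adjusted p = 0.0850). In MDA-MB-231, PHGDH was well above background in both channels on 1 of 6 arrays, and without that line the difference was 0.15 (SE 0.065, adjusted p = 0.205), with 0.25 in HCC1954, 0.18 in ZR-75-30 and in T-47D and 0.01 in MDA-MB-361.

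DNAJC3, a cochaperone that inhibits PERK, had a difference of 0.29 (SE 0.087, adjusted p = 0.0691). In ZR-75-30 it went from -0.62 to 0.16 and in T-47D from -0.33 to 0.17, while in MDA-MB-231 the later mean was lower than the first, at -0.18 against -0.11. The difference passed at an adjusted p of 0.0465 where both channels had to be well above background, and at 0.0442 without MDA-MB-231 at 12 and 24 h. SESN2 had 0.20 (SE 0.061, adjusted p = 0.0693) and passed at 0.0394 without MDA-MB-361. XBP1 (-0.23, SE 0.071, adjusted p = 0.0768) and EDEM1, which hands misfolded glycoproteins to degradation (-0.17, SE 0.054, adjusted p = 0.0832), were lower later in 5 of 5 lines, and EDEM1 passed at 0.0420 without MDA-MB-231 at 12 and 24 h. The second probe of XBP1 had the other sign, at 0.15 (adjusted p = 0.535). Alanyl-tRNA synthetase AARS had the largest difference in size, 0.32 (SE 0.115, adjusted p = 0.122), higher later in 5 of 5 lines.

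By the probe used for each gene, several common markers of the stress responses had differences close to 0. HSPA5 had 0.01 (SE 0.071, 95% interval -0.14 to 0.15), DDIT3 0.01 (SE 0.095, -0.18 to 0.21), CHAC1 0.01 (SE 0.036, -0.07 to 0.08) and TRIB3 0.00 (SE 0.115, -0.23 to 0.24). ASNS had 0.03 (SE 0.071), HERPUD1 0.11 (SE 0.102) and ATF4 -0.07 (SE 0.087). Adjusted p ranged from 0.633 for HERPUD1 to 1.00 for HSPA5 and TRIB3. The second probes of ATF4 and TRIB3 gave other values, 0.21 for ATF4 (adjusted p = 0.0534), with the sign turned, and 0.31 for TRIB3 (adjusted p = 0.0583).

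Further genes of both pathways were counted beside the members. In this comparison 2.44% of all probes passed, and 2177 of 31119 probes where both channels had to be well above background. Of 36 other genes of the unfolded protein response 2 passed, both downward. They were EIF2AK3, which encodes the sensor PERK, at -0.42 (SE 0.107, adjusted p = 0.0400), and SEC63, a component of the ER translocon, at -0.26 (SE 0.067, adjusted p = 0.0414). Of 39 other amino acid response genes 4 passed. BBC3, a proapoptotic BH3 gene, had 0.78 (SE 0.193, adjusted p = 0.0383), the alanine transaminase GPT2 0.32 (adjusted p = 0.0400) and tyrosyl-tRNA synthetase YARS 0.31 (adjusted p = 0.0430), whereas isoleucyl-tRNA synthetase IARS had -0.35 (adjusted p = 0.0456). None of these 6 genes passed without HCC1954, MDA-MB-231, T-47D or ZR-75-30, or without the second scan batch, and 3 passed without MDA-MB-361 (adjusted p of up to 0.317 without ZR-75-30). With the median of all probes of a gene, 3 of the 6 passed. There, SEC63 had -0.03 (adjusted p = 0.867), BBC3 0.23 (adjusted p = 0.0748) and GPT2 0.14 (adjusted p = 0.215). In the comparison over the mean of the lines, 0 of the 36 and 0 of the 39 passed.

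**Figure D2:**
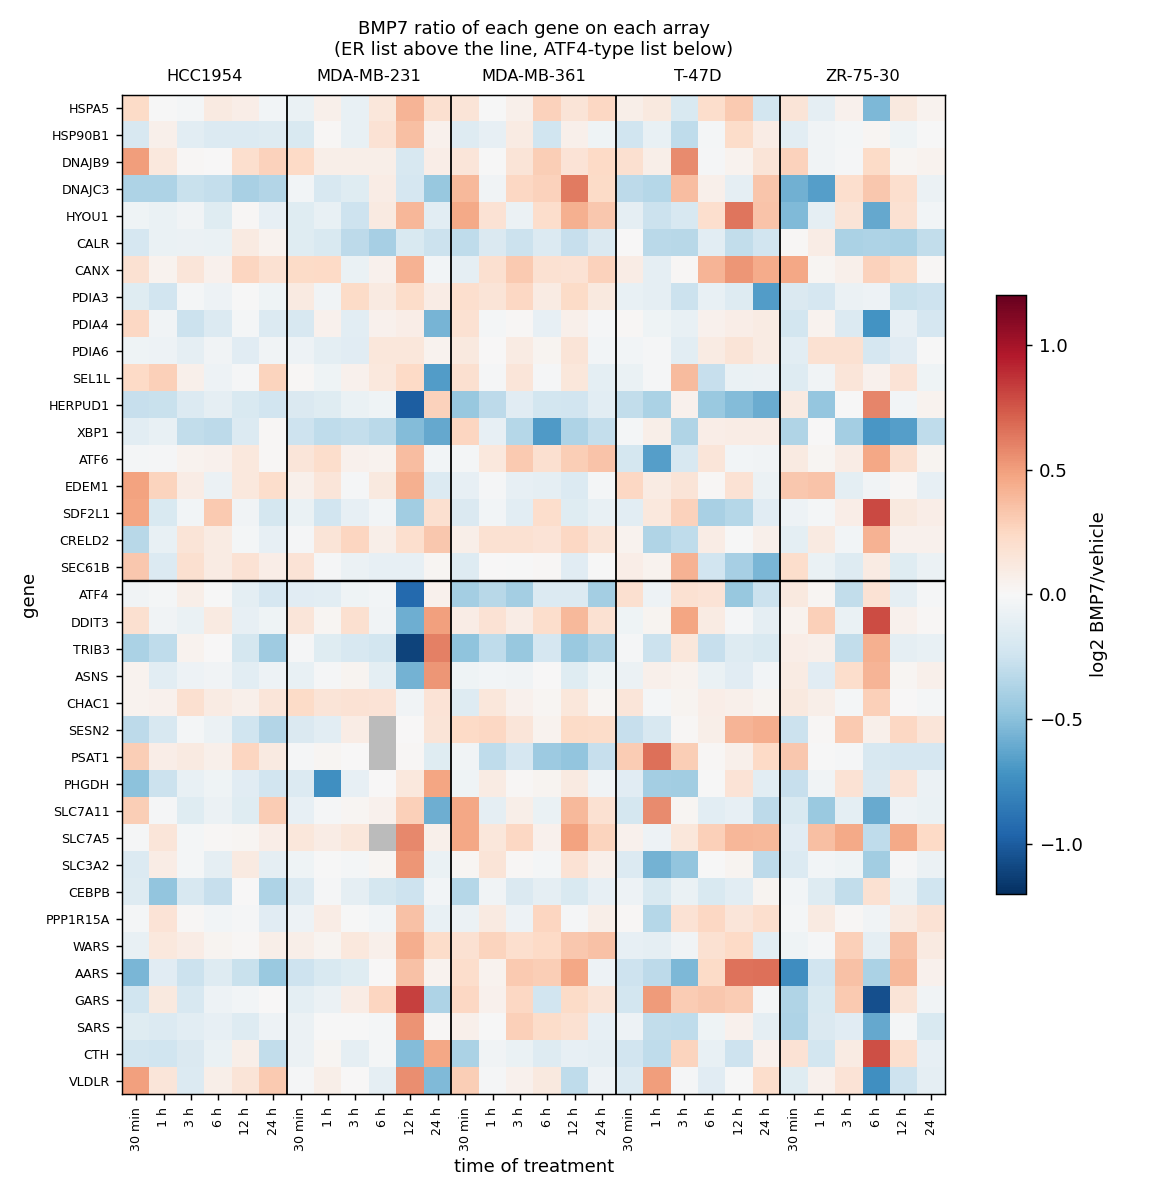
Log2 ratio of BMP7 over vehicle of the 37 members (rows, ER list above the line, ATF4-type list below) on the 30 arrays (columns, by line and time), red for higher and blue for lower with BMP7 and grey for no value. The strongest colours stand in MDA-MB-231 at 12 h (TRIB3 -1.11) and ZR-75-30 at 6 h (GARS -1.05).

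In part, the study filtered probes by changes of at least 2-fold at single time points. For its lists of target genes it required changes in several combinations of line and time. A member value past 2-fold on 1 array is called an event here. Of 1107 values of members on single arrays, 2 were changed at least 2-fold and both were lower with BMP7: TRIB3 in MDA-MB-231 at 12 h (-1.11 on the log2 scale, 2.16-fold) and glycyl-tRNA synthetase GARS in ZR-75-30 at 6 h (-1.05, 2.07-fold). No member value was 2-fold higher. Over all probes, 0.908% of values were 2-fold higher and 0.957% 2-fold lower, and 0.813% were either where both channels were well above background. With that restriction there were 3 member events in 1100 values, with HERPUD1 in MDA-MB-231 at 12 h as the third. Events have no replicate check.

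At 12 h in MDA-MB-231, ATF4 and several genes of its list stood low with BMP7. TRIB3 was at -1.11, ATF4 at -0.93, DDIT3 at -0.59, ASNS at -0.56, and CTH, the cystathionine lyase of cysteine synthesis, at -0.52. Other ATF4-type genes were high on the same array, with GARS at 0.82, SLC7A5 at 0.57, the lipoprotein receptor VLDLR at 0.56, SARS at 0.54 and SLC3A2, the partner chain of SLC7A5, at 0.53. The ER list split as well, with CANX at 0.41, HSPA5 at 0.40 and HYOU1 at 0.40 above 0 and HERPUD1 at -0.99 and XBP1 at -0.52 below.

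At 24 h in the same line, much of this was turned. TRIB3 stood at 0.61, ASNS at 0.53, DDIT3 at 0.49, CTH at 0.46 and HERPUD1 at 0.28, while GARS was at -0.37, VLDLR at -0.53, the cystine transporter SLC7A11 at -0.58 and SEL1L, a subunit of the degradation complex of the ER, at -0.67. XBP1 stayed low at -0.62 and ATF4 was near 0 at 0.05. Of the 37 members 22 had opposite signs on the 2 arrays. This was also true of 63.2% of all probes well above background in both channels on both arrays, and the 2 arrays correlated at r = -0.25 over all probes. The part of this in the members' values was not tested.

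On the array of ZR-75-30 at 6 h, SDF2L1, an ER chaperone partner, was at 0.79, DDIT3 at 0.78, CTH at 0.77, HERPUD1 at 0.58, TRIB3 at 0.42 and ASNS at 0.41. GARS was at -1.05, VLDLR at -0.74, PDIA4 at -0.71, XBP1 at -0.70, HYOU1 at -0.61 and HSPA5 at -0.54. Of the 37 members, 13 had the opposite sign in MDA-MB-231 at 24 h, HSPA5 (0.19 there) among them, and 29 in MDA-MB-231 at 12 h. Over all probes its ratios correlated with MDA-MB-231 at 24 h at r = 0.48 and with MDA-MB-231 at 12 h at r = -0.28. On this array and on that of MDA-MB-231 at 12 h, 12 members passed 0.5 in size, whereas the median array had 0. Of all probes well above background, 35.6% and 20.5% passed 0.5 on these arrays, against a median of 5.19%. With the 12 and 24 h arrays of MDA-MB-231 left out, or that of ZR-75-30 at 6 h, still none of the 37 members passed in the mean over lines.

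**Figure D3:**
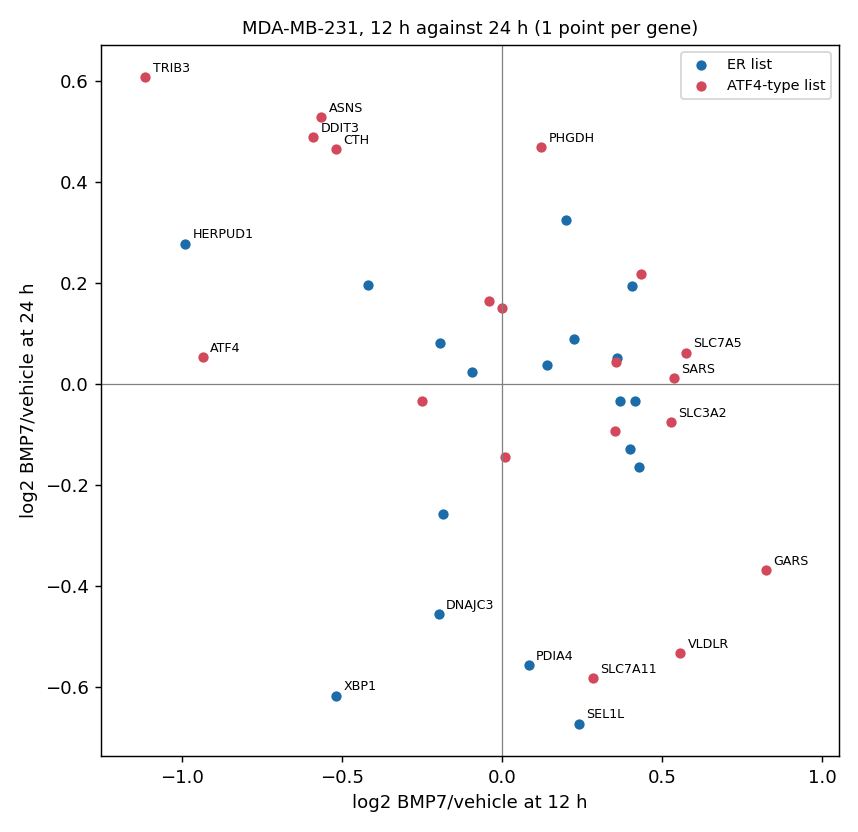
Log2 ratio of BMP7 over vehicle of each member in MDA-MB-231 at 12 h (x axis) and at 24 h (y axis), with the ER list in blue and the ATF4-type list in red. TRIB3, ASNS, DDIT3, CTH and HERPUD1 lie at upper left and GARS, VLDLR, SLC7A11 and SEL1L at lower right, and XBP1 is low at both times.

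The third question was whether the response differed between lines. Time points of a line served as repeats, with time point as a block, and the 5 lines were compared by a moderated F test. Of the 37 members 7 passed, beside 15.2% of all probes. In a fit where both channels had to be well above background, 7154 of 23749 probes passed. The share of members in the fit over all probes thus did not exceed that of probes with signal in this separate fit. The 7 were PDIA3, DNAJC3 and ATF6 of the 18 ER genes and PSAT1, SARS, SESN2 and WARS of the 19 ATF4-type genes.

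The probes of PSAT1 (chr9:80134598-80134657), PDIA3 (chr15:41849792-41850047) and DNAJC3 (chr13:95214001-95214144) are placed on hg18 by the array annotation. PSAT1 lay between 0.06 and 0.29 in HCC1954 (median 0.11), 0.01 and 0.66 in T-47D (0.27), -0.48 and -0.04 in MDA-MB-361 (-0.29), -0.21 and 0.32 in ZR-75-30 (-0.10), and -0.15 and 0.02 on the 5 arrays of MDA-MB-231 with a value (0.01). It was thus above 0 at every time in HCC1954 and T-47D and below 0 at every time in MDA-MB-361, with no overlap between these. The line means spanned 0.55 (adjusted p = 0.00194). PDIA3, a disulfide isomerase that works with calnexin and calreticulin, lay between 0.10 and 0.25 in MDA-MB-361 (median 0.18) and -0.04 and 0.23 in MDA-MB-231 (0.11), against -0.23 to -0.01 in HCC1954 (-0.06), -0.67 to -0.09 in T-47D (-0.13) and -0.27 to -0.06 in ZR-75-30 (-0.19). MDA-MB-361 did not overlap with the 3 lines where all values were below 0. The span was 0.40 (adjusted p = 0.00271).

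DNAJC3 had the widest span of line means among members, 0.63 (adjusted p = 0.0270). It was low at all times in HCC1954 (-0.39 to -0.26, median -0.36) and mostly high in MDA-MB-361 (-0.05 to 0.62, median 0.26), and these lines did not overlap. In MDA-MB-231 (-0.46 to 0.09), T-47D (-0.34 to 0.37) and ZR-75-30 (-0.66 to 0.32) it lay on both sides of 0. Seryl-tRNA synthetase SARS (span 0.36, adjusted p = 0.0280) was highest on average in MDA-MB-361 and below 0 at all times in HCC1954 and ZR-75-30. The sensor ATF6 (0.37, adjusted p = 0.0329) was lowest in T-47D, where it reached -0.66 at 1 h. The second probe of ATF6 did not pass (0.44, adjusted p = 0.199). SESN2 (0.39, adjusted p = 0.0460) was below 0 at all times in HCC1954 and above 0 at all times in MDA-MB-361, and tryptophanyl-tRNA synthetase WARS (0.25, adjusted p = 0.0497) lay between 0.18 and 0.35 in MDA-MB-361.

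Wide spans were also found in genes that did not pass, namely AARS (0.51, adjusted p = 0.166), the chaperone HYOU1 (0.41, adjusted p = 0.120), HERPUD1 (0.40, adjusted p = 0.268) and XBP1 (0.40, adjusted p = 0.0560). Among the other genes, 10 of 36 of the unfolded protein response and 8 of 39 of the amino acid response passed. Beside them stood 15.2% of all probes, and 7154 of 23749 probes where both channels had to be well above background. The former were led by the ER oxidase ERO1L (adjusted p = 0.00406), the disulfide isomerase P4HB (0.00449), SPCS1 of the signal peptidase (0.00489) and EIF2AK3 (0.00894). The latter were led by IARS (0.00738), BBC3 (0.0144), PSPH, which completes serine synthesis (0.0248), and YARS (0.0266). Under 16 alternatives PSAT1 and PDIA3 passed in 15 each, DNAJC3 in 11, ATF6 in 9, SARS in 8, WARS in 6 and SESN2 in 5. The number of members passing fell to 2 without 3 h or without 24 h, and to 3 without 30 min, 1 h, 12 h or the second scan batch, and was 12 after normexp and loess and 0 after normexp and median scaling. Arrays of a line mostly shared slides, and the line, its serum and its slides cannot be told apart.

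**Figure D4:**
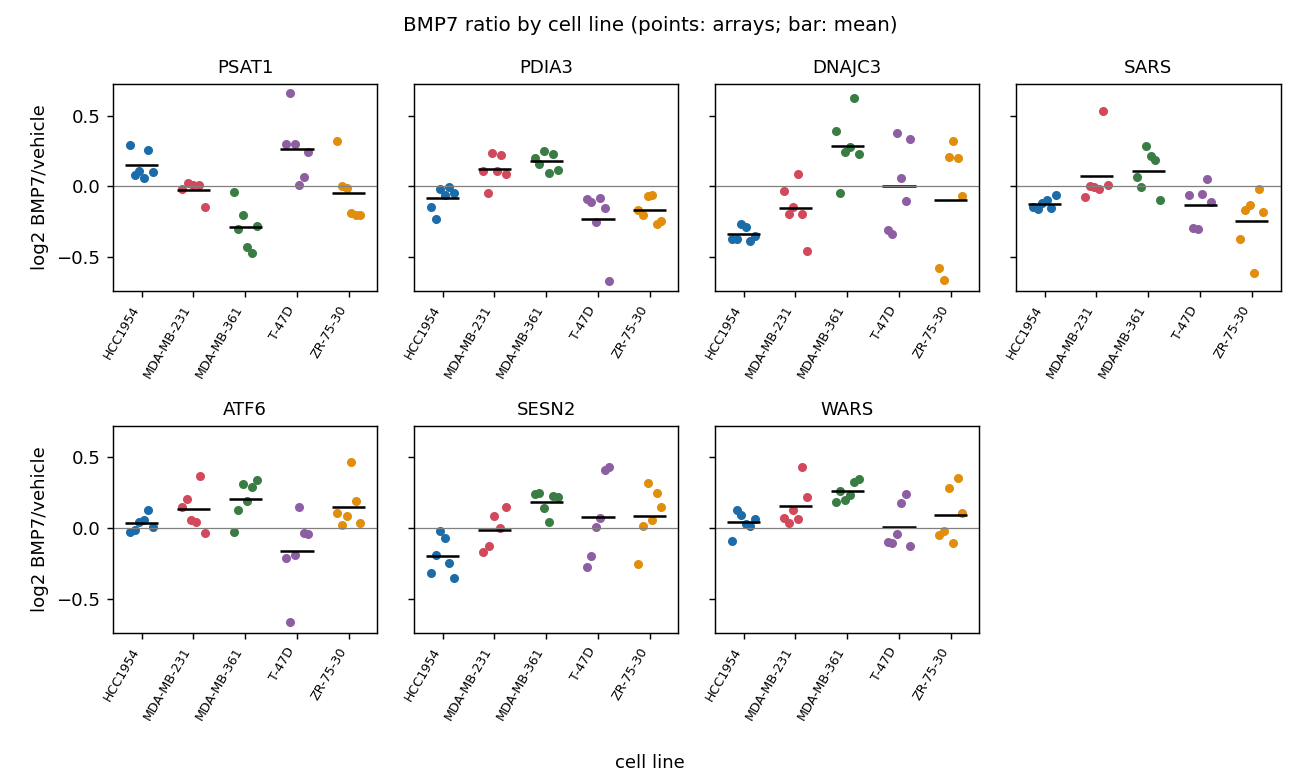
Log2 ratio of BMP7 over vehicle by cell line for the 7 members that differed between lines, with each array as a point and the mean of a line as a bar. MDA-MB-361 is the lowest line for PSAT1 and the highest for PDIA3, DNAJC3, SARS, ATF6, SESN2 and WARS by its mean.

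The vehicle channel shows the basal level of the same genes, given as log2 signal minus the 75th percentile of the array. Such levels are compared between lines for the same probe, not between genes. In RNA of whole cultures, fewer expressing cells and less RNA per cell cannot be told apart. Between lines, by the probe used for each gene, 35 of the 37 members differed in the moderated F test, beside 75.9% of all probes. The exceptions were EDEM1 (adjusted p = 0.0886) and SLC3A2 (adjusted p = 0.0699). In a separate fit, 92.9% of the 26286 probes with vehicle signal well above background on 15 or more arrays passed. The share of members was thus near that of the probes with signal. The second probes of EDEM1 (span 1.87, adjusted p = 7.73e-07) and SLC3A2 (span 0.98, adjusted p = 0.000135) did pass. Those of ATF4 (span 0.44, adjusted p = 0.436) and SLC7A5 (span 0.45, adjusted p = 0.547) did not. The median span of line means was 1.20 in the ER list and 2.05 in the ATF4-type list, and 1.50 over all probes. HSPA5 spanned 0.78 (adjusted p = 0.000281), from a mean of 2.55 in HCC1954 to 3.33 in T-47D.

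PHGDH, which opens serine synthesis, differed most between lines. In MDA-MB-231 it was well above background on 2 of 6 arrays (levels of -6.87 to -4.78), and in each of the other lines on all arrays. In those it was 0.01 to 1.20 in HCC1954, 0.38 to 1.80 in ZR-75-30, 1.56 to 2.44 in T-47D and 2.09 to 2.37 in MDA-MB-361. MDA-MB-231 thus stood apart from the rest, and HCC1954 overlapped with ZR-75-30. With each array of MDA-MB-231 set no lower than the dimmest signal well above background on it, PHGDH was at least 196-fold higher in MDA-MB-361 and at least 62.4-fold higher in HCC1954 (adjusted p = 1.17e-18 between lines).

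XBP1 spanned 4.22 (adjusted p = 8.06e-16). It was highest in MDA-MB-361 (7.40 to 7.66, median 7.52), followed by T-47D (6.49 to 7.22, median 6.99) and ZR-75-30 (6.34 to 6.97, median 6.70), which overlapped, then HCC1954 (4.27 to 5.05, median 4.52) and MDA-MB-231 (3.01 to 4.11, median 3.14), which overlapped with no other line. The 3 lines with the most XBP1 were those with the highest ESR1. SLC7A11, which imports cystine for glutathione, spanned 3.99 (adjusted p = 7.53e-11), with T-47D lowest (-3.91 to -2.38, median -3.04) and MDA-MB-231 (-0.15 to 2.16, median 0.91) and ZR-75-30 (-0.18 to 0.99, median 0.32) highest and overlapping.

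PPP1R15A, a phosphatase subunit (GADD34) that reverses eIF2α phosphorylation, spanned 3.83 (adjusted p = 5.43e-13). It was high in MDA-MB-231 (1.04 to 2.90, median 2.13) and HCC1954 (0.26 to 1.53, median 1.11), which overlapped, and low in ZR-75-30 (-2.22 to -0.68), MDA-MB-361 (-1.99 to -0.60) and T-47D (-2.71 to -1.30), which overlapped with each other. VLDLR spanned 3.71 (adjusted p = 6.40e-13), again with MDA-MB-231 (-0.84 to 0.61) and HCC1954 (-1.39 to -0.07) above ZR-75-30 (-2.69 to -1.90), MDA-MB-361 (-3.75 to -3.33) and T-47D (-4.39 to -3.24). TRIB3 (span 3.14, adjusted p = 1.12e-11) was lowest in MDA-MB-231 (1.97 to 3.65) and highest on average in MDA-MB-361 (5.35 to 6.20), with HCC1954, T-47D and ZR-75-30 between them by their means and overlapping with each other. DDIT3 was lowest in HCC1954 (-3.31 to -2.72), with no overlap with any other line. The fold of these differences is on the scale of array signal, and with other probes of the same gene the span changed, as for HSPA5 from 0.78 to 2.67, SEL1L from 1.65 to 4.26 and XBP1 from 4.22 to 5.26.

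**Figure D5:**
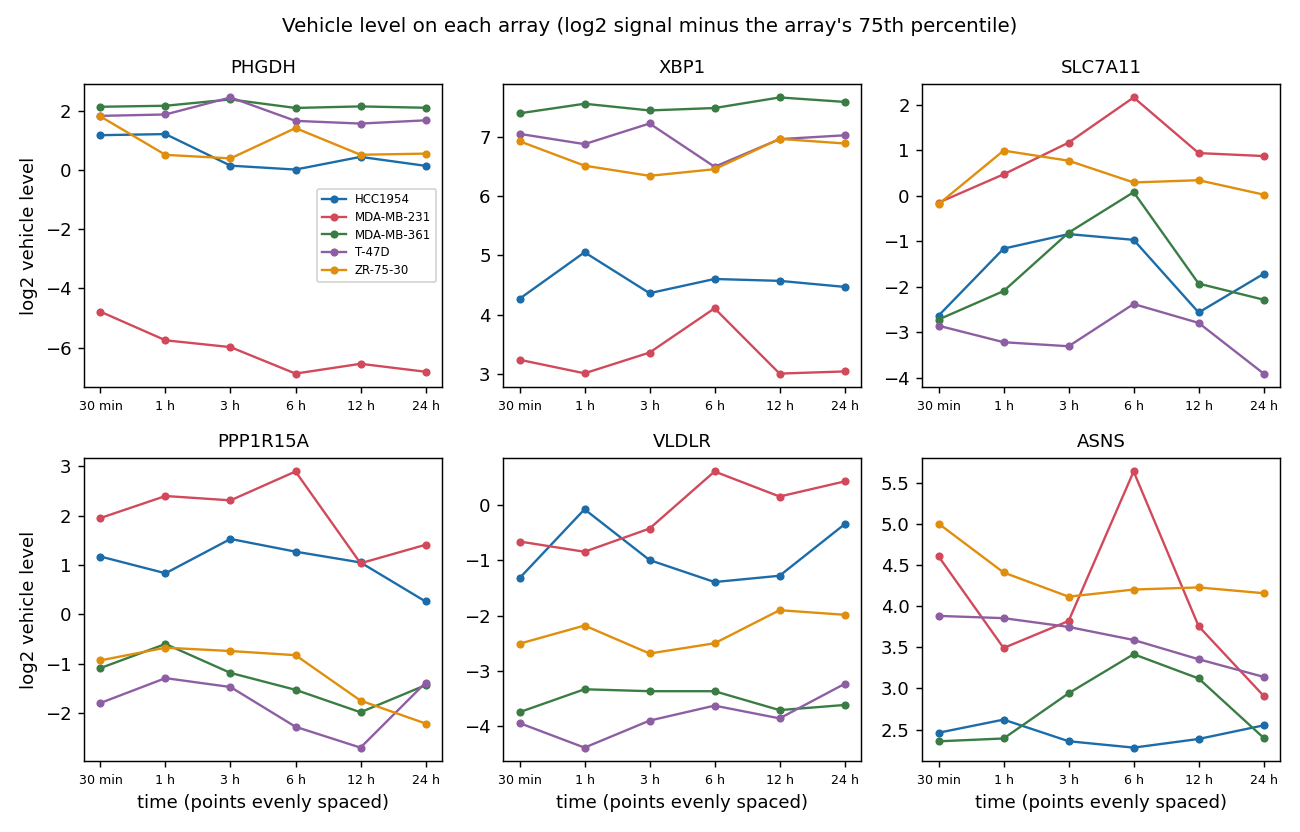
Vehicle level (log2 signal minus the 75th percentile of the array) of 6 members at each time point, with a line per cell line and the time points evenly spaced. PHGDH in MDA-MB-231, well above background on 2 of 6 arrays, stays between -6.87 and -4.78, PPP1R15A is lower on average at 12 and 24 h than in the first hour in each line (by -0.35 to -1.18, not past the test), and MDA-MB-231 at 6 h stands out for ASNS (5.63) and SLC7A11 (2.16).

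The last question was whether these genes drifted in vehicle over the day. The mean of 12 and 24 h minus that of 30 min and 1 h was tested within lines. None of the 37 members passed, as against 0.0244% of all probes, and 3 (8.11%) had an unadjusted p under 0.05, beside 7.48% of all probes. The ER list had 10 genes above 0 and 8 below (median 0.03), and the ATF4-type list 4 above and 15 below (median -0.13), with a median of 0.04 over all probes. The smallest p was that of PPP1R15A. It was lower at 12 and 24 h in 5 of 5 lines, by -0.35 in HCC1954, -0.50 in T-47D, -0.87 in MDA-MB-361, -0.95 in MDA-MB-231 and -1.18 in ZR-75-30, and by -0.77 on average (SE 0.187, adjusted p = 0.221). PHGDH had -0.64 (SE 0.201, adjusted p = 0.382), and -0.45 (SE 0.200, adjusted p = 0.684) without MDA-MB-231, where 4 of 6 arrays were not well above background. TRIB3 had -0.31 (SE 0.163, adjusted p = 0.703).

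ASNS had -0.31 (SE 0.219), SESN2 -0.15 (SE 0.147), DDIT3 -0.12 (SE 0.191), CHAC1 -0.11 (SE 0.220) and ATF4 -0.11 (SE 0.127), with adjusted p of 0.830 to 0.983. HSPA5 had 0.11 (SE 0.139), HERPUD1 0.06 (SE 0.124) and XBP1 0.03 (SE 0.140). The 95% intervals lay inside a difference of 0.5 for 23 of the 37 genes and inside 1, that is 2-fold, for 35, so smaller drifts of the remaining genes could not be detected with these arrays. At 6 h in MDA-MB-231, the array with the many outlier marks, the level of 29 of 34 members with a value lay outside the range of the other 5 time points of that line, 21 above and 8 below. CANX exceeded their median by 2.58, ATF6 by 2.23, ASNS by 1.88 and CTH by 1.60, while HYOU1 was below it by -1.79. Over all probes with signal, 40.5% lay above the range and 32.5% below.

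Of the 37 members, 16 had further probes on the array, 18 in all. None of these passed in the mean over lines, in the change with time or in the drift of the vehicle level, and 4, 9 and 6 of them had the opposite sign there. Between lines, 4 of the 18 passed for the BMP7 ratio (in ATF4, CEBPB, TRIB3 and PDIA3) and 16 for the vehicle level. ARMET, the older name of the neurotrophic ER stress protein MANF, had a mean ratio of -0.01 over lines (adjusted p = 0.963), and was at -0.46 at 12 h and 0.37 at 24 h in MDA-MB-231 and at 0.64 at 6 h in ZR-75-30, on the same sides as HERPUD1.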

How the data were processed

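The 30 arrays were Agilent Whole Human Genome two-colour arrays. Per the file headers, the authors' files hold output of Feature Extraction (9.5.1.1), namely background-corrected log10 ratios of Cy5 over Cy3 whose dyes had been normalized linearly and by lowess, and the processed intensity of each channel. A matrix of log2 ratios, centred per array by the authors, was deposited as well and served as an alternative. After removal of control spots and of spots marked as outliers, the ratios were converted to log2, averaged per probe and centred to a median of 0 on each array. Vehicle levels were log2 Cy3 intensities minus the 75th percentile of the array.

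Groups were taken from the labels. The members and all gene lists were chosen with earlier results of these data known. Each gene was read from its probe with the highest mean vehicle signal. Genes described in full were, for the ratio over lines and the changes with time, up to 8 past the threshold by adjusted p and in any case HSPA5, HERPUD1, XBP1, ATF4, DDIT3, TRIB3, ASNS, CHAC1 and SESN2, and between lines the 5 with the widest span of line means. Further genes were named after their values were seen.

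Tests were made with limma 3.58.1 in R 4.3.3, fitted over all probes at a threshold of 0.05 after Benjamini-Hochberg adjustment. The fits were tested on simulated data with independent noise, which held no shared effect of slide. Tables and figures were made with Python 3.11.15, numpy 2.4.6, pandas 2.3.3 and matplotlib 3.10.9. Alternatives were normexp (offset 50) with loess or median scaling, the series matrix, spots well above background in both channels, outlier-marked spots kept, the BMP7 channel, quantile normalization, slide as a random block (statmod 1.5.0), other time windows, the median of all probes of a gene, and leaving out lines, time points, single arrays or the second scan batch. The number of arrays limits the precision. Promoter sequences were taken from RefSeq (GRCh38.p14).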

Additional observations from a re-analysis of the deposited data

Results flagged for a closer look

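The BMP7 ratio of 7 members differed between the cell lines by the moderated F test of limma, which is a test of the difference itself. The adjusted p was 0.00194 for PSAT1, 0.00271 for PDIA3, 0.0270 for DNAJC3, 0.0280 for SARS, 0.0329 for ATF6, 0.0460 for SESN2 and 0.0497 for WARS. The second probe of ATF6 (adjusted p = 0.199) and the third of PDIA3 (adjusted p = 0.121) did not pass. Time points stood in for repeats of a line, and 15.2% of all probes passed the same test. Where both channels had to be well above background, 7154 of 23749 probes passed.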

How the results depend on the processing

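With normexp and median scaling, 11 members passed in the mean over lines in place of 0, 6 estimates were turned from below 0 to called increases, ATF4 (0.35), ASNS (0.28), HSP90B1 (0.51), SEC61B (0.38), SDF2L1 (0.35) and PDIA6 (0.31), 0 members in place of 7 differed between lines, and 76 member values in place of 2 were changed 2-fold (69 up, 7 down). No other alternative called a member in the mean over lines. For the change after the first hour, 1 member passed where both channels had to be well above background and 2 passed without MDA-MB-231 at 12 and 24 h, an alternative chosen after seeing the data. Leaving out each line in turn gave 0 to 1. Between lines, 12 members passed with normexp and loess, 11 with the series matrix and 3 without the second scan batch, and leaving out each time point gave 2 to 5. The 2-fold count was 0 at 3-fold. The causes were not tested. The drift of the vehicle level kept 0 calls under 15 alternatives, and the vehicle difference between lines stayed within 1.5 times of 35 under 14. Estimates of named genes that did not pass had the other sign in 51 of 441 cases. Each array pairs BMP7 with its own vehicle, and lines or time points were blocks where the comparison allowed it. A block by replicate number could not be fitted, since the labels give none.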
